A study of Oreochromis niloticus with 21 samples.

Results

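The genes described here are 287 liver-enriched genes of the Nile tilapia (Oreochromis niloticus) whose liver level was lower at both 10 and 18 °C than at 28 °C. They were chosen by measured values, out of 17098 gene IDs, through 3 conditions on RPKM. As deposited, RPKM is reads scaled by gene length and by a constant for each library. The liver level, log2 of 1 plus the mean RPKM over the 3 temperatures, had to exceed the highest of the other 6 tissues by 2 or more, which is 4-fold. The mean liver RPKM had to be 5 or more. The liver value of log2(RPKM + 1) had to be lower by 1 or more, which is 2-fold, at 10 and at 18 °C than at 28 °C. The first pair of conditions took in 531 genes, called liver-enriched here, and the condition on temperature kept 54.0% of them.

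Fish aged 6 months were held for 12 h at 10, 18 or 28 °C, and total RNA of liver and of 6 other tissues (brain, gill, heart, kidney, muscle, spleen) was sequenced. The libraries came from an Illumina TruSeq kit, with 1 library for each tissue and temperature and 21 libraries in all. The labels give no strain or sex, and leave out the number of fish, any pooling and whether tissues shared a fish. The effect of temperature and the difference between the fish sampled therefore cannot be told apart. Every difference from 28 °C within liver rests on the same library at 28 °C.

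The liver of a bony fish, like that of other vertebrates, is made up mostly of hepatocytes. These cells release the main plasma proteins, lipoproteins, clotting factors and complement into the blood, make bile, and handle glucose, lipids and amino acids. Liver transcripts are therefore dominated by a small set of very abundant messages for secreted proteins and metabolic enzymes. The Nile tilapia is a warm-water fish that feeds and grows poorly in cold water. The files name genes by Ensembl ID only, and 0 IDs could be paired with a symbol, so the labelled tissue was not checked against hepatocyte markers and no gene here is given a name or a function.

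The reads behind each RPKM value were recovered as whole numbers. Reads on genes numbered 530615 at 10 °C, 470889 at 18 °C and 1507953 at 28 °C in liver, and 331738 to 3664592 over the 21 libraries. Intervals below are 95% and exact, and cover counting error only. Among the other tissues, heart at 18 °C and brain at 10 °C stood apart. In heart 35.0% of the genes considered were at least 2-fold higher at 18 than at 28 °C, and in brain 33.2% were at least 2-fold lower at 10 than at 28 °C.

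The 287 genes held a far smaller part of the liver RNA in the cold. Their share of liver reads was 18.2% (18.1 to 18.3%) at 10 °C and 20.6% (20.5 to 20.8%) at 18 °C, against 59.4% (59.3 to 59.5%) at 28 °C. The other 244 liver-enriched genes held 33.6% at 10 °C and 32.1% at 18 °C, against 11.6% at 28 °C. The genes outside the liver-enriched list held 48.2% at 10 °C and 47.3% at 18 °C, against 29.0% at 28 °C. In bulk tissue, fewer cells of a type and less RNA per cell cannot be told apart. Since the conditions above used these libraries, the shares are a description and were not tested.

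**Figure D1:**
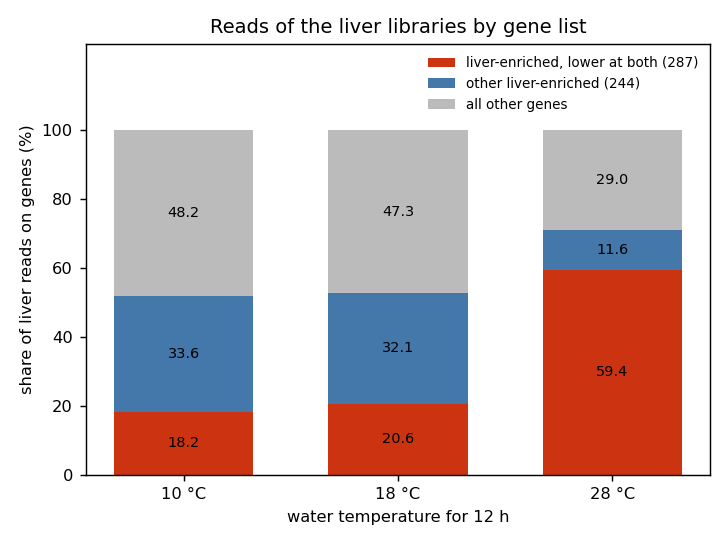
Stacked bars give the share of liver reads on genes (%) at 10, 18 and 28 °C, 1 library each, for the 287 genes (red), the other 244 liver-enriched genes (blue) and all other genes (grey). The red part is 18.2% and 20.6% in the cold libraries, against 59.4% at 28 °C.

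Summed over the 287 genes, RPKM was 90626 at 10 °C and 82054 at 18 °C, against 677407 at 28 °C. The cold sums were thus 7.47-fold and 8.26-fold lower than at 28 °C. For the other 244 liver-enriched genes the sum was 102323 at 10 °C and 79553 at 18 °C, against 72055 at 28 °C. Reads on genes were 1.43 times the library constant behind RPKM at 28 °C, 0.641 times at 10 °C and 0.531 times at 18 °C. A fall from 28 °C is therefore larger in RPKM than in the share of reads, and a rise is smaller. Which depth that constant stands for was not given. Scaled instead by their own totals of reads on genes, a choice made after seeing the data, the liver libraries gave a median difference of the 287 genes of -2.06 at 10 °C and -1.85 at 18 °C, with 280 and 274 of the genes below 0. The conditions applied on that scale kept 106 genes, all of them among the 287.

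At 28 °C the most abundant liver transcripts were of this list. The choice favoured this, since it kept genes with a higher liver level at 28 °C than at 10 and 18 °C. It supplied 3 of the 10 genes with the highest RPKM at 10 °C and 4 at 18 °C, against all 10 at 28 °C. Of the 100 highest, it supplied 23 at 10 °C and 27 at 18 °C, against 54 at 28 °C. The other liver-enriched genes supplied 29 of the 100 at 10 °C and 33 at 18 °C, against 11 at 28 °C. In each library, the 20 members with the most reads there made up 13.3% of all liver reads at 10 °C and 15.2% at 18 °C, against 39.7% at 28 °C. These 20 were picked anew at each temperature.

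The median RPKM of the 287 genes in liver was 20.4 at 10 °C and 22.2 at 18 °C, against 221 at 28 °C. Their mean liver RPKM ran from 5.67 to 60285, with a median of 92.6, and 136 genes were at 100 or more. The median difference in log2(RPKM + 1) was -3.19 at 10 °C and -3.19 at 18 °C, each against 28 °C. With genes at 0 reads set to 3 reads, it was -3.16 at both cold temperatures. At 10 °C the differences ran from -9.59 to -1.01, with quartiles of -4.62 and -2.19. At 18 °C they ran from -10.69 to -1.11, with quartiles of -4.08 and -2.30. Differences on this scale understate the change of genes with low RPKM.

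**Figure D2:**
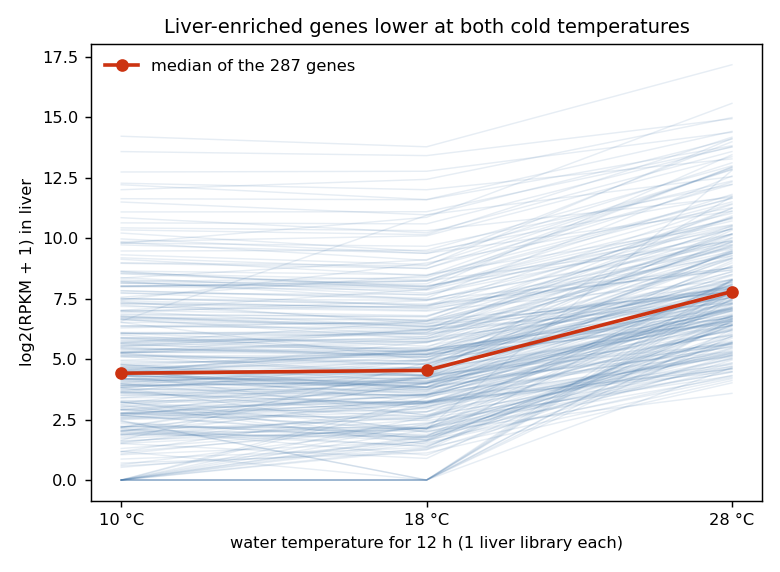
Each thin line is 1 of the 287 genes, as log2(RPKM + 1) in the liver libraries at 10, 18 and 28 °C, and the red line joins the medians. The lines keep close to level between 10 and 18 °C and lie higher at 28 °C, as the choice of genes required.

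On the deposited RPKM scale a liver-wide shift ran in the same direction. Over the 3560 genes with a mean liver RPKM of 5 or more, the median difference was -0.60 at 10 °C and -0.55 at 18 °C, and 1298 of them (36.5%) were lower by 1 or more at both. With the libraries scaled by total reads on genes the shift ran the other way, with medians of 0.43 at 10 °C and 0.77 at 18 °C, and 609 of the 3560 (17.1%) were lower by 1 or more at both. The 287 genes' medians were below 0 on both scales. On the deposited scale they lay -2.59 and -2.64 from that shift, and 244 of the 287 were lower by 1 or more at both temperatures when it was taken out. The choice used these same liver libraries and favoured such values, so the medians, distances and count are a description and were not tested. Where 1 liver library of the pair or both reached an RPKM of 5, 44.6% of all genes were at least 2-fold lower at 10 than at 28 °C and 42.4% at 18 than at 28 °C. Scaled by total reads, these shares were 21.6% and 14.98%. By choice, the 287 genes are all among the genes counted on the deposited scale.

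The sizes differed widely among the members. Both differences were 2 or more for 215 genes, 3 or more for 135, 4 or more for 65 and 5 or more for 30. Reads numbered 100 or more at 28 °C for 232 genes and under 20 for 4. No read was found at 10 °C for 18 genes and at 18 °C for 10, and 7 genes had none at either. Counted as 3 reads at 10 °C, those without reads there had an RPKM 5.48-fold to 124-fold lower than at 28 °C. The counting interval of the ratio reached 2-fold or less for 29 genes at 10 °C and 19 at 18 °C, and took in 1 for 3 genes at 10 °C and 0 at 18 °C.

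The 5 members with the highest mean RPKM differed in how far they were lower. ENSONIG00000016153, with an implied length of 477 bp, had 19037 RPKM at 10 °C and 14065 at 18 °C, against 147753 at 28 °C. Its level was 7.76-fold (7.58 to 7.95) lower at 10 °C and 10.5-fold (10.2 to 10.8) lower at 18 °C. ENSONIG00000014479 had 882 RPKM at 10 °C and 1864 at 18 °C, against 48856 at 28 °C. That gene alone took 0.251% of liver reads at 10 °C and 0.639% at 18 °C, against 6.24% at 28 °C, where it was the member with the most reads. It was 55.4-fold (52.5 to 58.5) lower at 10 °C and 26.2-fold (25.3 to 27.2) lower at 18 °C.

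ENSONIG00000001190 had 4109 RPKM at 10 °C and 5527 at 18 °C, against 32475 at 28 °C, and was 7.90-fold and 5.88-fold lower in the cold. The remaining pair of the 5 was less strongly lower. ENSONIG00000017080 had 12264 RPKM at 10 °C and 10925 at 18 °C, against 31444 at 28 °C, which is 2.56-fold and 2.88-fold lower. Its share of liver reads hardly differed, at 2.73% at 10 °C and 2.93% at 18 °C, against 3.14% at 28 °C. ENSONIG00000021228 had 6831 RPKM at 10 °C and 6977 at 18 °C, against 21324 at 28 °C. ENSONIG00000014479 was thus above ENSONIG00000017080, ENSONIG00000001190 and ENSONIG00000021228 at 28 °C and below all of them at 10 and 18 °C.

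The largest differences belonged to genes that were all but undetected in the cold. ENSONIG00000007831 had 7 reads at 10 °C and 3 at 18 °C, against 7722 at 28 °C. Its RPKM was 8.28 at 10 °C and 3.31 at 18 °C, against 7147 at 28 °C, which is 864-fold (419 to 2149) and 2158-fold (738 to 10465) lower. ENSONIG00000008919 had 0 reads in both cold libraries, against 264 reads or 308 RPKM at 28 °C. The lower end of its interval was 55.6-fold lower at 10 °C and 59.6-fold lower at 18 °C. Counted as 3 reads in each cold library, it was 68.9-fold and 73.8-fold lower.

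At the other end, ENSONIG00000013731 had 4953 RPKM at 10 °C and 4108 at 18 °C, against 9942 at 28 °C, so a highly expressed member was only 2.01-fold lower at 10 °C. Its share of liver reads was higher in the cold, at 1.40% at 10 °C and 1.41% at 18 °C, against 1.27% at 28 °C. ENSONIG00000017640 had 10 reads at 10 °C and 3 at 18 °C, against 27 at 28 °C, and its ratio at 10 °C, 2.11, had an interval (0.991 to 4.89) that took in 1. At 18 °C the smallest differences were those of ENSONIG00000012088, at 21.4 RPKM at 10 °C and 40.0 at 18 °C, against 87.6 at 28 °C, and of ENSONIG00000001598, at 45.0 RPKM at 10 °C and 73.2 at 18 °C, against 160 at 28 °C.

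Near each limit the genes inside and outside differed little. For the distance to the next tissue, ENSONIG00000001326 was just inside at 2.001 and ENSONIG00000000750 just outside at 1.98. For the mean liver RPKM, ENSONIG00000000045 was inside at 5.67 and ENSONIG00000020598 outside at 4.95. For the difference at 10 °C, ENSONIG00000013731 was inside at -1.01 and ENSONIG00000011699 outside at -0.996. For the difference at 18 °C, ENSONIG00000012088 was inside at -1.11 and ENSONIG00000019369 outside at -0.98. Of the 531 liver-enriched genes, 14 (2.64%) met the condition at 10 °C only and 30 (5.65%) at 18 °C only, with 200 meeting it at neither. Of the 3560 genes with a mean liver RPKM of 5 or more, 1505 were lower by 1 or more at 10 °C. At 18 °C 1476 of the 3560 were, and 1298 were lower at both. Of the liver-enriched genes outside the list, 50 were at least 2-fold higher at both cold temperatures, which was not counted over all genes.

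The order of the 287 genes in the cold libraries was nearly the same at 10 and 18 °C. Spearman's rho between their levels at 10 and 18 °C was 0.951 over the 287 genes, which share both libraries, and is given as a description. It was 0.797 between 10 and 28 °C and 0.819 between 18 and 28 °C. For the other 244 liver-enriched genes the value between 10 and 18 °C was 0.757. The choice favoured this likeness: it required both cold levels to be low relative to 28 °C, and left genes that were low at a single cold temperature among the other 244.

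Between the cold libraries, 134 members were lower at 10 than at 18 °C, 146 were higher and 7 had no reads in either. The 2 levels were within 2-fold for 240 genes. A level of 5 RPKM or more at 10 or 18 °C was found for 241 of the 287. Of these 241, 24 were at least 2-fold lower at 10 °C, where 13.6% of all genes considered were, and 8 were at least 2-fold higher, where 9.19% were. On the deposited scale, the counting interval of the ratio left out 1 for 84 genes, 32 lower and 52 higher at 10 °C. This was not counted over all genes, so no share stands beside it. The direction can depend on the scale. ENSONIG00000017080 counted as higher at 10 °C (1.12-fold, 1.10 to 1.15), though its share of liver reads was lower there. Scaled by total reads on genes, 48 of 263 (18.3%) were at least 2-fold lower at 10 °C, where 22.8% of all genes considered were. On that scale 9 of 263 (3.42%) were at least 2-fold higher, where 6.50% of all genes were.

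**Figure D3:**
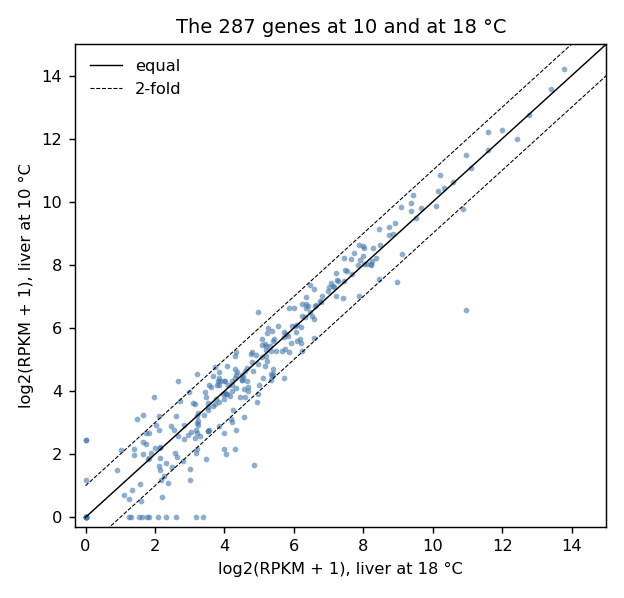
Each point is 1 of the 287 genes, with log2(RPKM + 1) in liver at 18 °C across and at 10 °C up. The solid line marks equal levels and the dashed lines a 2-fold difference. 240 of the 287 genes lie between the dashed lines.

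A few members did separate the cold temperatures. ENSONIG00000014606 had 94.2 RPKM at 10 °C, against 1973 at 18 °C, from 74 and 1659 reads, and stood at 17556 RPKM at 28 °C. Its difference of -4.37 between 10 and 18 °C was the lowest among members with 20 or more reads at 28 °C. For the next, ENSONIG00000021802, the difference of -3.39 came from 0 reads at 10 °C, against 1 at 18 °C. The highest differences, 2.46 for ENSONIG00000003112 and 2.44 for ENSONIG00000009615, also came from few reads. The first had 3 reads at 10 °C, against 0 at 18 °C, and the second 6 at 10 °C, against 0 at 18 °C. Of the 24 genes at least 2-fold lower at 10 °C, 7 had 20 or more reads at 18 °C, and of the 8 higher ones, 4 had 20 or more reads at 10 °C.

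The members were shorter than the other liver-enriched genes. Their implied length had a median of 1503 bp and a range of 119 to 8281 bp, against a median of 2110.5 bp in the other 244 and 2140.5 bp in all liver-expressed genes. With the liver-expressed genes in 4 equal classes by length, members were, from shortest to longest, 67.5%, 53.6%, 44.6% and 43.0% of the liver-enriched genes. Length also moved with the difference between temperatures in liver as a whole. The median difference at 10 °C by class was -1.46, -0.78, -0.46 and -0.03 over all liver-expressed genes, and -3.83, -2.96, -3.04 and -2.57 over the members. Spearman's rho of length with the difference at 10 °C was 0.274 over the 287 genes, 0.004 over the other liver-enriched genes and 0.260 over the liver-expressed genes. The part of length in the members' difference was not tested.

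**Figure D4:**
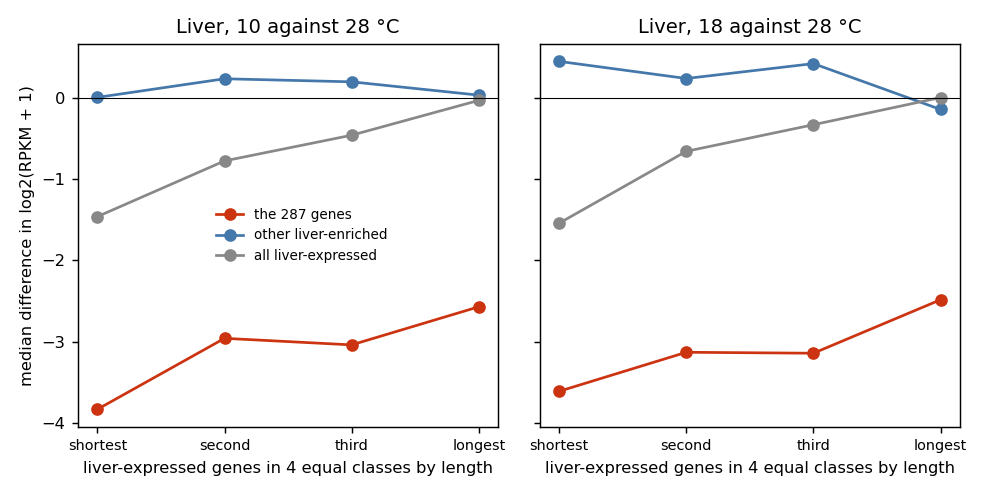
Points give the median difference in log2(RPKM + 1) against 28 °C at 10 °C (left) and 18 °C (right), with liver-expressed genes in 4 equal classes by length. The 287 genes (red) lie from -3.83 to -2.57 at 10 °C, below all liver-expressed genes (grey) and the other liver-enriched genes (blue) in every class.

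The extremes of length show what depth allows. The shortest member, ENSONIG00000022251 at 119 bp, had 0 RPKM in both cold libraries, against 222 at 28 °C, which is 28 reads. Counted as 3 reads in each cold library, it was 7.31-fold lower at 10 °C and 7.82-fold lower at 18 °C. The lower end of its interval was 5.56-fold at 10 °C and 5.95-fold at 18 °C. The longest, ENSONIG00000006133 at 8281 bp, had 256 RPKM at 10 °C and 229 at 18 °C, against 1675 at 28 °C. It was 6.55-fold (6.24 to 6.89) and 7.31-fold (6.95 to 7.69) lower.

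Outside liver the 287 genes ranged from undetected to abundant, which the choice limited only relative to liver. In the tissue where each was next highest, the mean RPKM was below 1 for 84 genes, 1 to 10 for 123 and 10 or more for 80, with 15 at 100 or more. The next highest tissue was kidney for 83 genes, spleen for 47, heart for 44, gill for 38, muscle for 35 and brain for 30, and 10 genes had no reads elsewhere. A mean of 1 or more was reached in all 6 other tissues by 71 genes and in exactly 1 by 58. Since liver had to exceed every other tissue 4-fold, the 80 genes at 10 or more elsewhere needed a higher liver level to be chosen than genes lower elsewhere. Their median in liver was 66.2 RPKM at 10 °C and 71.4 at 18 °C, against 724 at 28 °C. The 84 genes below 1 elsewhere had medians of 12.7 at 10 °C and 13.5 at 18 °C, against 110 at 28 °C. The median difference at 10 °C against 28 °C was -3.25 for genes at 10 or more elsewhere, -3.25 for those at 1 to 10 and -2.73 for those below 1. These bounds were chosen after the values were seen.

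A few members were among the highest in the other tissues, and each was found in every library. ENSONIG00000000435, of 270 bp, had a mean RPKM of 1860 in kidney, 1445 in spleen, 1242 in heart, 833 in muscle, 749 in gill and 269 in brain. Its liver values were 4739 at 10 °C and 3102 at 18 °C, against 21882 at 28 °C. Its liver level at 18 °C was close to its highest level elsewhere, 2899 in kidney at 18 °C. ENSONIG00000007736 averaged 1032 RPKM in spleen, 899 in heart and 276 in brain. Its liver values were 927 at 10 °C and 1096 at 18 °C, against 10580 at 28 °C, so both cold values were below the 2065 of heart at 18 °C. ENSONIG00000007988 averaged 896 RPKM in heart and 158 in brain, with liver values of 1588 at 10 °C and 1544 at 18 °C, against 14128 at 28 °C.

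Some other abundant members had little signal outside liver. ENSONIG00000001190 had a mean of at most 1.19 RPKM in any other tissue, and ENSONIG00000017080 at most 4.23. ENSONIG00000016153, the highest of all in liver, differed from these in having signal in brain. It averaged 127 RPKM there, with 90.6 at 10 °C and 179 at 18 °C, against 112 at 28 °C, and had 0 in every gill library.

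Whether the members were also lower in the cold elsewhere was described within each tissue, 1 library a side, over those that reached 5 RPKM on either side. This kept 54 to 98 of the 287 genes in a comparison, so these counts are not over all members. In kidney, 35 of 91 (38.5%) were at least 2-fold lower at 10 than at 28 °C, where 13.7% of all genes considered were, and their median difference was -0.68. The members' share of kidney reads was 1.14% at 10 °C, against 2.31% at 28 °C. ENSONIG00000007736 alone had 4508 of the members' 34824 kidney reads at 10 °C, against 5398 of 20933 at 28 °C. At 18 °C in kidney, 20 of 98 were at least 2-fold lower, where 17.2% of all genes were, and the share of reads was 2.32%. At least 2-fold higher in kidney were 1 of 91 at 10 °C, where 8.07% of all genes were, and 9 of 98 at 18 °C, where 7.54% were. With a pseudocount of 5, 20 of 91 (22.0%) were at least 2-fold lower at 10 °C, where 6.49% of all genes considered were. Scaled by total reads on genes, 80 of 137 (58.4%) were, where 26.8% of all genes were.

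In spleen, 39 of 82 (47.6%) were at least 2-fold lower at 18 than at 28 °C, where 16.2% of all genes were. At 10 °C, 28 of 90 were, where 20.3% of all genes were. At least 2-fold higher in spleen were 15 of 90 at 10 °C, where 22.6% of all genes were, and 7 of 82 at 18 °C, where 15.7% were. The members' share of spleen reads was 1.82% at 10 °C and 1.49% at 18 °C, against 3.40% at 28 °C. Of the members' spleen reads, ENSONIG00000007736 alone had 4697 of 19191 at 10 °C and 3764 of 12678 at 18 °C, against 8315 of 31188 at 28 °C. In the other liver-enriched genes the spleen share lower at 18 °C was 42.3%, close to that of the members. Short genes were lower at 18 °C in spleen as a whole, with a median difference of -0.38 over genes under 2140.5 bp and 0.24 over longer ones, against -0.98 and -0.97 in the short and long members.

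Heart ran the other way at 18 °C. There 55 of 85 (64.7%) were at least 2-fold higher at 18 than at 28 °C, where 35.0% of all genes considered were. Since 5 RPKM on either side was enough, a gene could be considered only because it was high at 18 °C, which raises both percentages. With no minimum the count was 63 of 287, and scaled by total reads on genes it was 54 of 117. Shares over all genes were not taken for these. The members' share of heart reads was 1.01% at 10 °C and 2.68% at 18 °C, against 1.14% at 28 °C. ENSONIG00000007736 alone had 17380 of the members' 49859 heart reads at 18 °C, against 5088 of 27914 at 28 °C. The median difference at 18 °C was 1.53 over members under 2140.5 bp and 1.10 over longer members, against 0.99 and -0.10 over all genes of those lengths. Another 7 of the 85 were at least 2-fold lower at 18 °C, where 21.1% of all genes were. At 10 °C in heart, 10 of 54 were at least 2-fold lower, where 10.5% of all genes were, and 2 were higher, where 4.85% were. The heart library at 18 °C stood apart as a whole, and its part in this result was not tested.

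In brain 29 of 64 (45.3%) were at least 2-fold lower at 10 than at 28 °C, where 33.2% of all genes were, and 0 of 63 at 18 °C, where 1.49% were. In gill the counts were 19 of 64 at 10 °C, where 20.4% of all genes were lower, and 17 of 65 at 18 °C, where 19.1% were. In muscle they were 17 of 74 at 10 °C, where 14.5% were lower, and 24 of 79 (30.4%) at 18 °C, where 17.1% were. At least 2-fold higher at 10 °C were 9 of 64 in brain, 8 of 64 in gill and 13 of 74 in muscle, where 20.4%, 16.2% and 17.2% of all genes were. At 18 °C they were 4 of 63 in brain, 9 of 65 in gill and 16 of 79 in muscle, where 2.98%, 17.0% and 17.9% of all genes were. Of the other liver-enriched genes considered in gill, 45.2% were at least 2-fold lower at 10 °C and 40.0% at 18 °C. These shares were 39.3% and 7.41% in brain, and 12.0% and 10.7% in muscle. In kidney they were 14.3% and 18.8%, and in heart 13.3% and 18.2%.

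**Figure D5:**
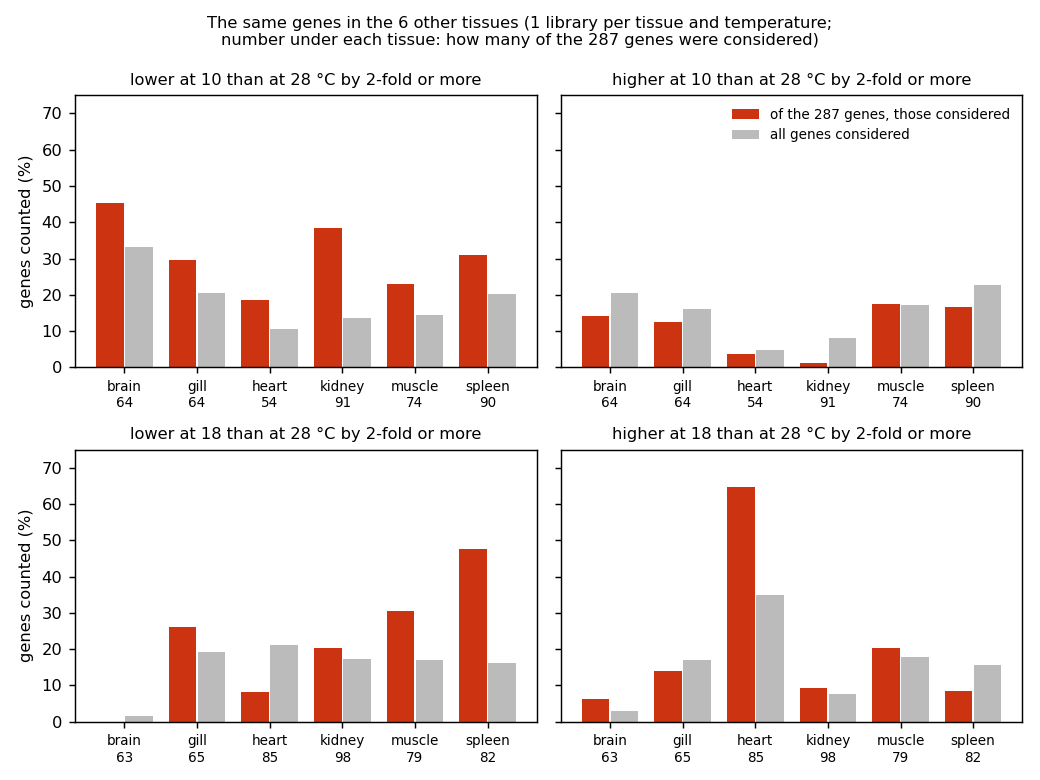
Bars give the percentage of genes at least 2-fold lower (left) or higher (right) at 10 (top) or 18 °C (bottom) than at 28 °C in each of the 6 other tissues, for those of the 287 genes that were considered (red; number under each tissue) and for all genes considered (grey). Kidney at 10 °C and spleen at 18 °C show the widest gaps among the lower counts (38.5% against 13.7%, and 47.6% against 16.2%), and heart at 18 °C among the higher ones (64.7% against 35.0%).

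Across the 6 other tissues, no temperature difference passed the test. limma was fitted to the 18 libraries outside liver with tissue as a block, so that its p-values measure how alike the difference was over tissues. It tested 14953 genes, of which 185 were among the 287, and called 0 (0% of genes tested) at an adjusted p under 0.05 for 10 against 28 °C, and likewise 0 for 18 against 28 °C and for 10 against 18 °C. Before adjustment, p was under 0.05 for 913 genes (6.11%) at 10 against 28 °C, 592 (3.96%) at 18 against 28 °C and 716 (4.79%) at 10 against 18 °C. The voom method of limma, run on recovered reads, gave 0 calls too, and its unadjusted p was under 0.05 for 1155, 714 and 858 genes in the same order.

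Of the 185 members tested, 15 had an unadjusted p under 0.05 between 10 and 28 °C, all lower at 10 °C, where 4.67% of all genes tested were. Between 18 and 28 °C there were 7, of which 2 were higher and 5 lower at 18 °C, where 2.76% of all genes tested were lower. Between 10 and 18 °C there were 11, all lower at 10 °C, where 2.94% of all genes tested were. The median difference of the 185 was -0.21 between 10 and 28 °C, beside -0.06 over all genes tested. There 141 of the 185 were below 0, as were 57.9% of all genes tested. The median of the 185 was -0.06 between 18 and 28 °C and -0.15 between 10 and 18 °C, beside -0.02 over all genes in both. Fewer than all members passed the filter, and these values are a description.

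By the smallest p, the members lower at 10 than at 28 °C were ENSONIG00000005145 and ENSONIG00000016418. ENSONIG00000005145 differed by -1.46 (SE 0.46) and was lower in 5 of 6 tissues, with 4.55 RPKM at 10 °C, against 27.4 at 28 °C in kidney, and 3.81 at 10 °C, against 38.2 at 28 °C in spleen. ENSONIG00000016418 differed by -0.89 (SE 0.29) and was lower in 6 of 6. Its highest level outside liver was in muscle, at 153 RPKM at 10 °C and 165 at 18 °C, against 241 at 28 °C. limma's adjusted p was 0.775 for both. ENSONIG00000011811 at 0.32 (SE 0.17) and ENSONIG00000001598 at 0.63 (SE 0.34) had the smallest p among members with a positive difference. Each was higher at 10 °C in 5 of 6 tissues, with an adjusted p of 0.826 by limma. ENSONIG00000011811 had few reads there, with a mean of at most 1.56 RPKM in any tissue outside liver. In heart it had 2 reads at 10 °C, against 0 at 28 °C, and in muscle 5, against 1.

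ENSONIG00000014479, the member with the most liver reads at 28 °C, ran opposite to liver elsewhere at 18 °C. In heart it had 11.9 RPKM at 18 °C, against 0.225 at 28 °C, from 92 and 3 reads. In muscle it had 12.8 RPKM at 18 °C, against 0.571 at 28 °C, from 88 reads and 1 read. Gill differed little, at 1.96 RPKM at 18 °C, against 1.59 at 28 °C, from 8 and 13 reads. Outside liver the gene was higher at 18 than at 28 °C in 6 of 6 tissues, by 1.64 (SE 0.49). limma's adjusted p was 1.00, and it did not pass the test. Between 10 and 18 °C it differed by -1.52 (SE 0.49) and was lower at 10 °C in 5 of 6 tissues, with an adjusted p of 0.875 by limma. ENSONIG00000012006 at 0.59 (SE 0.27) had the next smallest p among members with a positive difference between 18 and 28 °C.

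ENSONIG00000015478 at -1.35 (SE 0.44) and ENSONIG00000006538 at -0.65 (SE 0.23) had the smallest p among members with a negative difference between 18 and 28 °C, each lower at 18 °C in 5 of 6 tissues. For ENSONIG00000006538 some of these rest on few reads. Brain had 1 read at 18 °C, against 2 at 28 °C, gill 0, against 4, and heart 1, against 2. Between 10 and 18 °C, ENSONIG00000010328 differed by -1.52 (SE 0.52), from at most 12 reads in any library outside liver. ENSONIG00000003887 at 0.61 (SE 0.30) and ENSONIG00000014800 at 0.43 (SE 0.22) had the smallest p among members with a positive difference, and were higher at 10 °C in 4 and 6 of 6 tissues. None of these passed the test.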

How the data were processed

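The authors deposited 1 RPKM value per Ensembl gene ID and library, per the file headers. The tools listed, per the submitters' processing notes, are Bowtie, HTSeq and TopHat. Their versions and roles and the genome build and annotation were not given in the sources used here. RPKM is whole reads over gene length and a library constant; solving for these recovered whole reads (within 1e-06) in 100% of values of the 17094 genes above 0. On simulated data of 3000 genes in 12 libraries the solver was right for 99.97%. Recovered reads, 331738 to 3664592 a library, gave depth, shares and intervals; without molecular identifiers these cover counting error only. The IDs matched 0 entries of the RefSeq table, so the lists of pathway and marker genes, written as symbols, were not applied.

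The genes and lists were chosen with earlier results of these data known. Liver was described, not tested. The 18 libraries outside liver were fitted in R 4.3.3 by limma 3.58.1 on log2(RPKM + 1), allowing a mean-variance trend, with tissue as a block, two-sided, with Benjamini-Hochberg adjustment over all genes that reached 1 RPKM in 3 or more of these libraries. Simulated data of the comparison of 10 with 28 °C had 15280 genes, with 50 changed per size. There limma recovered 14%, 78%, 90% and 96% of 2-fold, 4-fold, 8-fold and 16-fold changes, with 4 false calls. The changed genes were drawn only from genes whose mean log2(RPKM + 1) over these tissues was above 3. On this scale changes of genes with low RPKM are understated. The members' median of mean RPKM outside liver ran from 0.34 in brain to 0.93 in kidney. These percentages therefore do not cover members at such levels, and the lack of calls does not exclude changes in them. Within a tissue, genes were considered at an RPKM of 5 in 1 of the pair and counted at 2-fold. Alternatives were other pseudocounts, filters, scalings, a length correction, limma-voom, and leaving out tissues or libraries. Named genes are the 5 highest in liver, those with the 2 largest and 2 smallest differences between temperatures (20 reads or more at 28 °C), the 2 highest in each other tissue, the 2 smallest p in each direction, those next to each limit, and the shortest and longest.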

Additional observations from a re-analysis of the deposited data

Results flagged for a closer look

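Of 12 sets of 6 values, 1 per other tissue, that were screened for a value far from the rest, 1 was picked out: the percentage of the genes considered that were at least 2-fold higher at 18 than at 28 °C. Heart, at 64.7%, stood above the other 5 tissues, where the percentage ran from 6.35% in brain to 20.3% in muscle. Over all genes considered, the percentage in heart was 35.0%. Genes could be considered through a high level at 18 °C alone, and with no minimum the heart count was 63 of 287. The limit used is meant to pick out about 1 in 20 sets of independent values by chance. These 12 sets share libraries and genes, so that rate need not hold here.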

How the results depend on the processing

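The number of genes meeting the conditions was 538 with a distance of 1 to the next tissue, 181 with 3, and 106 when scaled by total reads on genes; under 10 other settings it was 215 to 335. The median difference at 10 °C in liver was -3.22 with a pseudocount of 0.5, -2.89 with 5, -3.07 with trimmed-mean factors, -3.27 with median-of-ratios factors, -2.56 with the median of liver-expressed genes set to 0, -3.01 with a length correction and -2.06 when scaled by total reads. At 18 °C, in the same order, it was -3.26, -2.85, -3.17, -3.30, -2.67, -2.82 and -1.85. The count lower at 10 than at 18 °C was 14 of 241 (5.81%) with a pseudocount of 5, where 7.29% of all genes considered were. When scaled by total reads it was 48 of 263 (18.3%), where 22.8% of all genes were. The count higher was 4 of 241 (1.66%) with a pseudocount of 5, where 4.01% of all genes were. With trimmed-mean factors it was 13 of 245 (5.31%), where 10.9% of all genes were. The kidney count was 20 of 91 with a pseudocount of 5, where 6.49% of all genes were lower, and 54 of 287 with no minimum. When scaled by total reads it was 80 of 137, where 26.8% of all genes were. The heart count was 63 of 287 with no minimum, 54 of 117 when scaled by total reads, and 41 to 56 of 83 to 85 otherwise. In the same order, the spleen count was 47 of 287, 50 of 122, and 29 to 45 of 80 to 82. Shares over all genes were not taken for heart and spleen under these settings, nor for kidney with no minimum. As shares of summed RPKM, the genes held 27.0% at 10 °C and 29.6% at 18 °C, against 65.9% at 28 °C; without the member with the most reads in each library they held 15.9% and 18.2% of reads, against 56.7%. The cause of these moves was not tested. limma called 0 genes in each comparison under all 16 alternatives, including each tissue left out in turn, and heart at 18 °C left out with brain at 10 °C and gill at 28 °C; the smallest adjusted p ran from 0.113 to 1.00 between 10 and 28 °C, from 0.256 to 1.00 between 18 and 28 °C, and from 0.055 to 1.00 between 10 and 18 °C. Without heart, the median of the members tested was -0.21 between 18 and 28 °C. The limma fit compared temperatures within each tissue, by a tissue block; without the block it also called 0 genes, with 153, 74 and 99 at an unadjusted p under 0.05 for 10 against 28 °C, 18 against 28 °C and 10 against 18 °C. The labels give no replicate number by which to pair libraries otherwise. The liver library at 28 °C enters every difference from 28 °C in liver and could not be left out. Genes without reads in a cold library, such as the 18 at 10 °C, have no upper limit on how far they were lower there.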
